A study of Mus musculus with 12 samples.

Results

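The wild-type adult mouse cortex was described from 6 poly(A) RNA-seq libraries, 3 from wild types of a knock-in line (KI_WT) and 3 from wild types of a knockout line (KO_WT). They are the 6 of the 12 libraries whose labels give a wild-type genotype, and both lines were described as one group without a contrast. All 12 animals were adults of the C57Bl/6 background, and each library has an animal number of its own. In the other 6 libraries exon 5 of Grin1, the gene of the NMDA receptor subunit GluN1, is constitutive (KI, labelled Grin1-exon5+/+, 3 libraries) or removed (KO, labelled Grin1-exon5-/-, 3 libraries). These 6 are set beside the wild types only where a pattern could be looked up in libraries that had no part in choosing it.

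Neocortex holds excitatory neurons, which release glutamate loaded into vesicles by VGLUT1, and inhibitory interneurons, which make GABA with the enzymes GAD67 and GAD65. Astrocytes, oligodendrocytes, microglia and vessel cells share the tissue, so that the RNA of a piece of cortex is a mixture of their transcripts. Many of the proteins involved come from families of duplicated genes, and tissues differ in which copy they use. In such bulk samples fewer cells of a type and less RNA per cell cannot be told apart.

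Depth was even over the 6 libraries, with totals of 31790970 to 33969744 counts and 21927 to 22768 of the 41388 genes in the table detected. Spearman correlations between pairs of libraries, over the 12362 genes with at least 1 RPKM in all of them, ran between 0.976 (KI_WT 2 and KI_WT 3) and 0.994 (KI_WT 1 and KO_WT 2). RPKM, used as deposited, is the count scaled by the length of the gene and the size of the library, so that levels of different genes can be compared. In the first of these pairs 249 genes differed at least 2-fold, and in the second 20. KI_WT 3 stood apart from 4 of the other libraries, with 165 to 249 genes at least 2-fold different, and was closest to KO_WT 3, with 48. Grin1 itself had 30.03, 33.3 and 35.9 RPKM in the lowest, median and highest library. KI_WT 1 was the one library with the X-inactivation RNA Xist (40.7 RPKM, against at most 0.0330 RPKM in the other 5), and the Y-linked helicase Ddx3y was listed at 0 there.

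A gene reached 1 RPKM in all 6 animals in 12362 cases, of which 11634 were protein coding. That is 54.4% of the protein-coding genes in the table, against 4.96% of long intergenic non-coding RNAs and 1.49% of processed pseudogenes. At the other end 3323 protein-coding genes had no count in any of the 6. The upper end of the range was narrow: 4818 genes reached 10 RPKM, 345 reached 100 RPKM and 13 reached 1000 RPKM in every library. The 10 most abundant genes by count held 7.06% to 11.4% of a library, the first 100 held 18.5% to 23.8% and the first 1000 held 48.5% to 52.2%. Membership of the upper ranks was shared, since 17 genes were among the 20 highest by RPKM in all 6 libraries and 24 were there in any. Of the 100 highest, 85 were common to the 6 libraries and 123 occurred in any.

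Transcripts of the mitochondrial genome took 8 of the 20 highest ranks by median RPKM. Messenger RNAs of the 13 proteins it encodes, all of them parts of the respiratory chain or of the ATP synthase, took 5.06% to 7.63% of counts. The first subunit of cytochrome c oxidase, mt-Co1 (mitochondrial chromosome, 5328 to 6872, plus strand), had 14537, 17514 and 21107 RPKM in the lowest, median and highest library. It was the gene with most counts in every library. Cytochrome b, mt-Cytb, followed with 9872 RPKM (7825 to 11557), where the median is followed by the range over the 6 libraries, as for the levels below. The complex I subunits mt-Nd1, mt-Nd2, mt-Nd5 and mt-Nd4 had medians of 8278, 5157, 4285 and 3134 RPKM. The 13 did not share one level, and 6 of them lay under 100 RPKM. mt-Co3 had 73.2 RPKM (69.1 to 93.3), mt-Atp6 20.8 RPKM (19.9 to 28.99) and mt-Co2 16.2 RPKM (11.5 to 22.7). These genes, named after their values were seen, are encoded on the same strand as mt-Co1 and lie close to it. For 5 of the 6 low members nearly the whole sequence is also annotated in nuclear copies. Of all windows of 50 bases in the mt-Co2 transcript each occurred in an annotated transcript of another gene, as did 99.9% for mt-Co3, 99.5% for mt-Atp6, 97.99% for mt-Nd3 and 98.8% for mt-Nd4l. For mt-Cytb and mt-Nd1 no window did, and for mt-Co1 and mt-Nd4 the shares were 51.1% and 62.2%. mt-Atp8 is an exception, since it had 25.3 RPKM (17.1 to 38.01) with no shared window, on a transcript of 204 bases. How the deposited counts treated reads with several matches was not given in the sources used here, and its part in these levels was not tested.

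Among the 20 highest genes were also 3 entries outside the mitochondrial genome that are annotated as RNAs without a protein. Gm23935 (chromosome 16, 11144125 to 11144181, plus strand), annotated as a microRNA gene of 57 bases, had the highest level of any gene, 26109, 53699 and 18043 RPKM in KI_WT 1 to KI_WT 3 and 22255, 21385 and 21403 RPKM in KO_WT 1 to KO_WT 3. Yam1, annotated as a long intergenic RNA, had 4034, 9127 and 2509 RPKM in KI_WT 1 to KI_WT 3 and 2766, 3314 and 3233 RPKM in KO_WT 1 to KO_WT 3. Gm24270, a further 57-base entry, had 1221 RPKM (961 to 3446), and every window of 50 bases in it also occurs in Gm23935. All 3 were highest in KI_WT 2, at least 2.06 times the next library. The same library led for Mir6236 (1299 RPKM, against at most 394 RPKM in the other 5). Lars2, the mitochondrial leucyl-tRNA synthetase, named after its values were seen, had 743 RPKM in KI_WT 2 and 205 to 298 RPKM in the other 5. The share of counts on mitochondrial ribosomal RNA was likewise highest there, at 1.67%, against 1.23% to 1.38% in the other 5. Whether reads on the entries named here come from another RNA, ribosomal RNA included, was not tested. RPKM divides by the gene's length, here 57 bases, so that the first rank of Gm23935 is one of counts per base, and all its windows are shared with other entries.

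Nuclear protein-coding genes were led by 3 with overlapping ranges. Fth1 (ENSMUSG00000024661; GRCm38, chromosome 19, 9980598 to 9985098, plus strand), the heavy chain of the iron store ferritin, had 1200.1, 1599 and 1724 RPKM in the lowest, median and highest library. Carboxypeptidase E, Cpe, which trims peptide hormones and neuropeptides, had 1184, 1404 and 1533 RPKM in the lowest, median and highest library. Calmodulin 2, Calm2, a gene of the main calcium sensor, had 1204, 1257 and 1343 RPKM in the lowest, median and highest library. These 3 lay above 1000 RPKM in every library, and no other nuclear protein-coding gene did. Then came the matricellular astrocyte protein Sparcl1 at 829.8 RPKM (753 to 864) and the protease inhibitor cystatin C, Cst3, at 819 RPKM (741 to 986). The translation factor Eef1a1 had 797 RPKM (753 to 893) and the acidic ribosomal protein Rplp1 had 767 RPKM (727 to 989). The neuronal motor Kif5a had 760.2 RPKM (491 to 905). Neighbours in this order were not separated: from Sparcl1 to Kif5a the range of each gene overlapped that of the next. Between Calm2 and Sparcl1, the ranges did not overlap.

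Genes of lower rank, named after their values were seen, mixed neuronal, glial and general genes. The sodium pump subunit Atp1b1 had 653 RPKM (564 to 728), the lipid carrier Apoe 615 RPKM (564 to 675) and glutamine synthetase, Glul, which converts glutamate in astrocytes, 605 RPKM (557 to 635). The actin-severing protein Cfl1 had 589.5 RPKM (547 to 607) and the neuronal membrane glycoprotein Gpm6a 586 RPKM (553 to 611). Camk2n1, an inhibitor of the kinase CaMKII, had 583 RPKM (428 to 757). The spread differed among these neighbours. Cfl1 and Gpm6a varied by 3.04% and 3.32% between animals, as the coefficient of variation (CV, the SD over the mean of the 6 libraries, after scaling), whereas Camk2n1 varied by 20.2%. Camk2n1 was lowest in KI_WT 3, as was Kif5a.

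**Figure D1:**
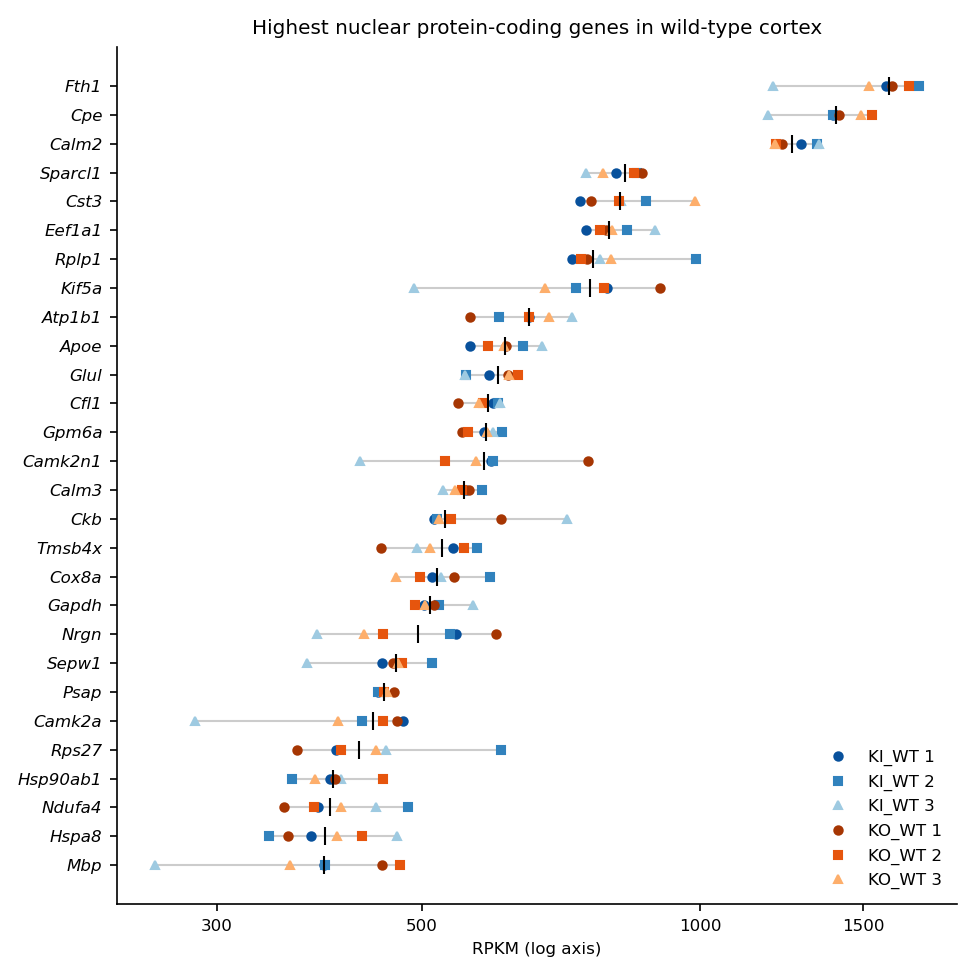
Deposited RPKM (log axis) of 28 nuclear protein-coding genes out of the 30 with the highest medians, with 1 symbol per wild-type library, a grey line for the range and a black tick for the median. Fth1, Cpe and Calm2 lie to the right of all others, and KI_WT 3 is the lowest library for Kif5a (491 RPKM) and Camk2n1 (428 RPKM).

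Paralogs were compared in 96 families with 396 members, of which 332 had a median of at least 1 RPKM and 5 were listed at 0 in all 6 libraries (Tuba3b, Actc1, Calm4, Atp6v1g3 and Cox8c). The leader of a family is the member with the highest median RPKM. The same member led in all 6 libraries in 85 families. The leader held more than 50% of the summed RPKM, at the median over the libraries, in 70 of the 96. The leader had at least 2 times the level of the next member in 48 families, at least 5 times in 19 and at least 10 times in 11, and less than 1.5 times in 25. Leaders were chosen from these same values, but the KI and KO libraries had no part in it. The wild-type leader led in all 6 of those libraries for 83 families, and in all 12 libraries for 82. RPKM divides by the length of the gene model, and in 15 families another member had the higher count. By count Stmn2 was ahead of Stmn3, Tubb4a of Tubb2a and Ywhaz of Ywhah. Likewise Syn2 was ahead of Syn1, Rab3c of Rab3a and Slc2a3 of Slc2a1. Copies that resemble each other can exchange reads: more than 20% of the 50-base windows were shared with another gene for 11 of the 192 leaders and next members, among them Tuba1a (72.9%), Tuba1b (73.8%), Eno1 (72.2%), Eef1a1 (59.2%), Actg1 (56.7%), Tubb2a (49.6%) and Slc25a5 (46.6%), whose levels are therefore uncertain. Overlapping and antisense genes carry the same doubt, since the strand setting was not given in the sources used here.

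In the cytoskeleton the neuronal copies led by wide margins in some families and not in others. Among the heavy chains of kinesin-1, the motor that carries cargo along axons, Kif5a had 794, 734 and 491 RPKM in KI_WT 1 to KI_WT 3 and 905, 787 and 679 RPKM in KO_WT 1 to KO_WT 3. It was 3.98 times Kif5c (3.33 to 4.20 over the libraries). The alpha tubulin Tuba1a had 374 RPKM (331 to 426) against 164 RPKM (152 to 175) for Tuba1b, and beta actin, Actb, had 256 RPKM (247 to 265) against 153 RPKM (143 to 161) for Actg1. The light neurofilament chain Nefl was 2.27 times internexin alpha, Ina. Beta tubulins had no steady leader. Tubb2a had a median of 235 RPKM and Tubb4a of 214 RPKM, with Tubb2a ahead in 5 of 6 libraries and a ratio of 0.910 to 1.38. In KI and KO libraries Tubb2a led in 5 of 6. Stathmins, which bind free tubulin, were led by Stmn3 at 337 RPKM (315 to 389), 1.65 times Stmn2. Of the proteins that stabilise microtubules Map2, found in dendrites, had 106 RPKM (97.6 to 111) and Map1b 80.2 RPKM (69.9 to 83.7).

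Most families of calcium signalling had one clear leader. The calcium sensor calmodulin is encoded by several genes with the same protein, among which Calm2 had 1287, 1338 and 1343 RPKM in KI_WT 1 to KI_WT 3 and 1227, 1208 and 1204 RPKM in KO_WT 1 to KO_WT 3. Calm3 had 555 RPKM (527 to 581). The levels of the kinase and phosphatase that calmodulin activates were lower. The alpha subunit of CaMKII, Camk2a, a kinase of excitatory synapses, had 477, 431 and 284 RPKM in KI_WT 1 to KI_WT 3 and 470.0, 454 and 406 RPKM in KO_WT 1 to KO_WT 3. It exceeded the beta subunit Camk2b 6.31-fold, and least in KI_WT 3 (3.66-fold). Of the phosphatase calcineurin the catalytic subunit Ppp3ca had 312 RPKM (279.9 to 318), 5.47 times Ppp3cb. Its regulatory subunit Ppp3r1 had 298 RPKM (256 to 325), whereas the paralog Ppp3r2, known from testis, had 0.0590 RPKM (0.0420 to 0.168). The pump of the endoplasmic reticulum Atp2a2 had 175 RPKM (141 to 179) and 151 times the level of Atp2a3. At the plasma membrane the pump Atp2b1 was 2.88 times Atp2b2, and the exchanger Slc8a2 was 4.79 times Slc8a1. In all these families the leader was ahead in each of the 6 wild types.

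Kinases and G proteins mostly had closer neighbours. Protein kinase C was led by Prkcb at 116 RPKM (96.8 to 139.5), 1.87 times Prkce, and catalytic protein kinase A by Prkacb at 107 RPKM (98.2 to 126), 1.92 times Prkaca. The 14-3-3 protein Ywhah, an adaptor of phosphorylated proteins, had 342 RPKM (304 to 375) and Ywhaz 263 RPKM (237 to 272). All 9 members of the protein kinase C family had a median of at least 1 RPKM. The regulatory subunit Prkar1a led Prkar1b in 5 of 6 libraries only. Gnao1, the G protein alpha subunit named for its abundance in brain, had 84.3 RPKM (77.2 to 89.3) and Gnai1 had 76.5 RPKM (69.9 to 93.4), and Gnao1 was ahead in 5 of 6. Gnaq, which drives phospholipase C, had 49.3 RPKM (39.8 to 52.1), 1.93 times Gna11, and its target Plcb1 had 34.5 RPKM (28.6 to 38.1), 3.45 times Plcb4. The stimulatory Gnas was 1.62 times Gnal, the form of olfactory and striatal neurons, and Gnb1 was 2.19 times Gnb5 among beta subunits. The ranges over the libraries overlapped for Gnao1 and Gnai1 and for Prkar1a and Prkar1b. Adenylyl cyclase 1, Adcy1, a calcium-stimulated form, had 93.4 RPKM (53.6 to 101) against 37.7 RPKM (28.5 to 46.7) for Adcy5, the form that prevails in striatum. The ratio of the pair was 1.17 to 3.46 over the wild types and 0.735 to 3.32 over KI and KO libraries. Adcy5 was highest in KO_WT 1 and KI_WT 3, at 46.7 and 46.01 RPKM, the libraries in which the striatal markers below were highest too. Their part in this ratio was not tested.

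Families of the transmitter release machinery were led by neuronal genes. The vesicle SNARE Vamp2 had 196, 216 and 223 RPKM in the lowest, median and highest library. It was 8.99 times Vamp4. Snap25, its partner at the plasma membrane, had 353, 367 and 416 RPKM in the lowest, median and highest library, 3.46 times Snap47. Dynamin 1, Dnm1, which pinches off vesicles, was 10.6 times Dnm3, and synaptophysin, Syp, was 2.47 times Syngr1. The small GTPase Rab3a, bound to vesicles, was 1.88 times Rab3c, and synapsin 1, Syn1, was 1.33 times Syn2. Other release genes came in near-equal pairs. The calcium sensor Syt1 had 187 RPKM (174 to 199.5) and Syt11 163 RPKM (149.9 to 174), and Syt1 was ahead in all 6 wild types but in 3 of 6 KI and KO libraries. Complexin 2, Cplx2, had 282, 255 and 204 RPKM in KI_WT 1 to KI_WT 3 and 309, 259 and 263 RPKM in KO_WT 1 to KO_WT 3. Complexin 1, Cplx1, had 240.3, 239 and 282 RPKM in KI_WT 1 to KI_WT 3 and 231, 242 and 234 RPKM in KO_WT 1 to KO_WT 3. Cplx2 was thus ahead in each wild type other than KI_WT 3, and ahead in 2 of 6 KI and KO libraries. The vesicle proteins Sv2b and Sv2a were at 93.7 and 87.4 RPKM, with Sv2b ahead in 4 of 6 wild types and in 2 of 6 KI and KO libraries. For these 3 pairs the order of the copies differed between animals over the 12 libraries.

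Transporter families included forms known from different cell types. VGLUT1, Slc17a7, had 253, 249 and 221 RPKM in KI_WT 1 to KI_WT 3 and 246, 225 and 242 RPKM in KO_WT 1 to KO_WT 3. Its paralog of thalamus and brainstem VGLUT2, Slc17a6, had 10.5, 12.6 and 12.6 RPKM in KI_WT 1 to KI_WT 3 and 8.01, 12.8 and 9.58 RPKM in KO_WT 1 to KO_WT 3. Slc17a7 exceeded it 17.6 to 30.7-fold in wild types and 10.4 to 20.1-fold in KI and KO libraries, and held 95.2% of the family. Astrocytes clear glutamate with Slc1a2, which had 339 RPKM (237 to 377), 3.51 times Slc1a3. Of the RPKM summed over beta subunits of the sodium pump Atp1b1 held 81.4%. The neuronal chloride extruder Slc12a5 was 2.67 times the importer Slc12a2. The vascular and astrocytic glucose transporter Slc2a1 had 29.6 RPKM (20.8 to 34.1) and the neuronal Slc2a3 20.3 RPKM (17.5 to 26.1). Lactate carriers were low, with Slc16a1 at 11.6 RPKM (11.2 to 12.4). The proton pump that acidifies vesicles used the neuronal a subunit Atp6v0a1, 2.92 times Atp6v0a2, and the G subunit Atp6v1g2, 1.51 times Atp6v1g1.

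In several families of energy metabolism the leader lay far above a form known from another tissue. Of cytochrome oxidase subunits with tissue forms, Cox8a had 519 RPKM (468 to 592) against 0.656 RPKM (0.0840 to 1.57) for the heart and muscle form Cox8b. Cox4i1 was 172 times Cox4i2, the form known from lung, and Cox6a1 was 39.5 times Cox6a2, known from heart and muscle. Cox7a2 and Cox7a2l were closer, with a ratio of 1.47. Creatine kinase was the brain form Ckb at 530.0 RPKM (516 to 718), 9.95 times the mitochondrial Ckmt1. Among glycolytic families the hexokinase Hk1 had 29.7 RPKM (27.7 to 32.3), the phosphofructokinase Pfkm 125 RPKM (114 to 128) and the aldolase Aldoa 385 RPKM (367 to 428). Hk1 was 15.1 times the next hexokinase Hkdc1, while Aldoa was 1.44 times Aldoc, the astrocytic aldolase. Pgam1 was 21.4 times Pgam2 and Pygb, the brain glycogen phosphorylase, 5.14 times Pygm. Lactate dehydrogenase was mostly Ldhb at 303 RPKM (284 to 392), 3.33 times Ldha. Neuronal enolase, Eno2, exceeded the general Eno1 by no more than 1.34-fold, and 72.2% of Eno1 windows are shared with copies. In the mitochondrial membranes the nucleotide carrier Slc25a4 was 1.99 times Slc25a5 and the channel Vdac1 1.77 times Vdac3. None of these energy families changed its leader between the 6 wild types.

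Families of translation factors and RNA-binding proteins kept the same leader in all 6 wild types. The elongation factor Eef1a1 was 3.84 times Eef1a2, the form of mature neurons and muscle, which had 213 RPKM (189 to 229). The RNA helicase Eif4a2 had 172 RPKM (153 to 215), 2.79 times Eif4a1, and the poly(A)-binding protein Pabpc1 had 27.1 RPKM (26.4 to 28.9). The neuronal RNA-binding protein Elavl3 had 43.3 RPKM (37.6 to 46.1), 1.99 times Elavl4.

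Genes studied in neurodegeneration included App at 373 RPKM (349 to 405), which led Aplp1 at 329 RPKM (316 to 374) by 1.07 to 1.19-fold. Cytosolic superoxide dismutase, Sod1, had 189 RPKM (185 to 226), 4.503 times the mitochondrial Sod2 per length, while Sod2 had more counts. The peroxiredoxins Prdx5 and Prdx2, which break down peroxide, had medians of 64.4 and 63.2 RPKM, and Prdx5 was ahead in 4 of 6 libraries.

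Leaders of receptor families lay between 5.92 and 78.1 RPKM at the median. The cannabinoid receptor Cnr1 had 30.1 RPKM (26.7 to 34.2) and its immune paralog Cnr2 0.0530 RPKM (0.0470 to 0.103). GABA-B receptor subunits, which work as a pair, were at 78.1 RPKM (74.4 to 81.9) for Gabbr1 and 44.3 RPKM (29.98 to 52.1) for Gabbr2. The BDNF receptor Ntrk2 had 55.5 RPKM (49.2 to 60.8), 6.59 times Ntrk3, and the muscarinic receptor Chrm1 20.7 RPKM (17.2 to 22.3), 1.51 times Chrm3. The adenosine receptor Adora1 was 1.54 to 5.92 times Adora2a, a striatal marker. The nociceptin receptor Oprl1 had 11.1 RPKM (10.6 to 12.7), 2.94 times the delta opioid receptor Oprd1, and the neuropeptide Y receptor Npy1r 9.75 RPKM (7.54 to 10.4), 2.21 times Npy2r. Growth factor receptors were led by the astrocytic Fgfr3 at 15.8 RPKM (13.4 to 17.5) and by Erbb4, the neuregulin receptor of interneurons, at 7.74 RPKM (6.76 to 8.65). Several monoamine and peptide receptors had no steady leader. Htr2a had 6.68, 3.99 and 9.89 RPKM in KI_WT 1 to KI_WT 3 and 5.36, 4.37 and 6.47 RPKM in KO_WT 1 to KO_WT 3. Htr2c had 4.75, 5.295 and 7.004 RPKM in KI_WT 1 to KI_WT 3 and 4.71, 5.72 and 6.29 RPKM in KO_WT 1 to KO_WT 3. Htr2a was ahead in 4 wild types but in 1 of 6 KI and KO libraries. Drd1 led Drd2 in 4 of 6 wild types, Adra1d led Adrb1 in 4 and Sstr3 led Sstr2 in 3.

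Leaders among nuclear regulators lay between 5.23 and 117 RPKM. Among them the thyroid hormone receptor was Thra at 117 RPKM (104 to 126), 12.1 times Thrb. Mef2c, a factor of cortical neurons, had 90.1 RPKM (75.8 to 112) and 3.03 times the level of Mef2a. Glucocorticoid receptor, Nr3c1, had 20.2 RPKM (18.3 to 21.3) and mineralocorticoid receptor, Nr3c2, 9.39 RPKM (5.85 to 13.2). The neuronal differentiation factor Neurod6 was 2.64 times Neurod2, Creb1, which couples activity to transcription, 1.62 times Crem, and the orphan receptor Rora 1.71 times Rorb. Of histone deacetylases Hdac2 had 24.8 RPKM (22.7 to 28.7) and Hdac5 15.7 RPKM (14.7 to 18.1), and heterochromatin protein Cbx5 37.9 RPKM (34.8 to 39.6). The chromatin remodeller Smarca2 was 2.23 times Smarca4. Of DNA methyltransferases Dnmt1 had 7.15 RPKM (6.32 to 7.91) and Dnmt3a 5.18 RPKM (4.602 to 6.097), with the order turned round by count. Tet3, which oxidises methylcytosine, had 5.23 RPKM (4.23 to 6.08). None of these families changed its leader between the wild types either.

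The labelled tissue was checked against marker lists, and markers of cortical neurons were present. Each of the 10 markers of excitatory cortical neurons had at least 1 RPKM in all 6 libraries, with a summed level of 678 to 1016 RPKM. So had 10 of 11 markers of inhibitory neurons. This level does not set cortex apart from nearby tissue, since 10 of 10 striatal, 6 of 6 ependymal and 7 of 9 hippocampal markers reached it too. Tbr1, which marks deep projection neurons and was named after its values were seen, had 16.2 RPKM (13.6 to 20.3). Markers of upper layers were led by Lamp5 at 62.4 RPKM (55.8 to 85.1) and of deep layers by Crym at 14.96 RPKM (11.7 to 22.5). The interneuron peptide Sst had 196 RPKM (147 to 222), Pvalb 49.5 RPKM (35.1 to 58.7), Gad1 48.5 RPKM (44.2 to 106) and Gad2 42.5 RPKM (36.2 to 56.8). Gad1 was highest in KI_WT 3, where striatal and olfactory bulb markers were highest too, and had at most 64.5 RPKM in the other 5. Of 10 markers of cerebellum and hindbrain 6 had medians under 0.1 RPKM, and Hoxb5 was listed at 0. However, 2 of the 10 had at least 1 RPKM in all 6 libraries. Car8 was the highest member, and the list summed to 7.44 to 10.3 RPKM. Of 18 markers of liver, muscle, testis and other organs 16 had medians under 0.1 RPKM. Surfactant protein C, Sftpc, at 1.16 RPKM (0.940 to 1.34), and a myosin of fast muscle, Myh1, at 0.106 RPKM (0.0510 to 0.171), were above that.

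Glia gave the second group of abundant markers. Oligodendrocyte genes summed to 1141 to 2081 RPKM, with Mbp, the myelin basic protein, at 392 RPKM (257 to 474). All 10 varied more than the median gene. So did 7 of 7 precursor, 7 of 9 endothelial and 6 of 6 mural markers of at least 10 CPM, the count scale given below. Of microglial markers 7 of 9 did, and of astrocyte markers 6 of 10. This was not particular to glia and vessels, since 9 of 10 excitatory, 6 of 6 upper-layer, 7 of 7 deep-layer and 9 of 9 inhibitory markers did as well. For the oligodendrocyte sum KI_WT 3 was lowest and KO_WT 2 highest. Astrocyte markers summed to 821 to 1026 RPKM, led by Slc1a2 and Aldoc, which had 259 RPKM (225 to 282). Microglial markers summed to 220.2 to 259.5 RPKM, with complement C1qb at 42.3 RPKM (37.8 to 46.9). Endothelial markers summed to 93.3 to 116 RPKM and mural markers to 84.2 to 91.6 RPKM. These vascular sums were close between animals, and the myelin sum was not. Precursors of oligodendrocytes summed to 73.9 to 106 RPKM and were highest in KO_WT 2 as well. Globin and other erythroid transcripts summed to 82.2 to 147 RPKM. Of 21 marker lists 12 had less than 1.5 times as much in the highest library as in the lowest, and 4 had at least 2 times as much.

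The 4 lists were choroid plexus, olfactory bulb, striatum and hypothalamus, tissues other than the cortex itself. Choroid plexus markers summed to 1245, 926 and 10.4 RPKM in KI_WT 1 to KI_WT 3 and 10.5, 669.9 and 13.7 RPKM in KO_WT 1 to KO_WT 3. The thyroxine carrier transthyretin, Ttr, had 1204, 898 and 1.96 RPKM in KI_WT 1 to KI_WT 3 and 6.85, 644 and 7.18 RPKM in KO_WT 1 to KO_WT 3, and made up most of the sum in the 3 libraries where it was high. KI_WT 1, KI_WT 2 and KO_WT 2 thus had it among the abundant transcripts, and the other 3 close to none. The anti-aging protein Klotho, Kl, had 5.64 to 9.91 RPKM in these 3 and 0.521 to 1.01 RPKM in the other 3. Olfactory bulb markers summed to 32.2, 28.1 and 134 RPKM in KI_WT 1 to KI_WT 3 and 25.2, 31.2 and 78.1 RPKM in KO_WT 1 to KO_WT 3. Their mitral cell gene Cdhr1 had 0.775, 1.25 and 31.6 RPKM in KI_WT 1 to KI_WT 3 and 0.647, 0.595 and 15.2 RPKM in KO_WT 1 to KO_WT 3. Here KI_WT 3 and KO_WT 3 were apart from the other 4. Striatal markers summed to 191, 206 and 478 RPKM in KI_WT 1 to KI_WT 3 and 394, 294 and 294 RPKM in KO_WT 1 to KO_WT 3, with proenkephalin, Penk, first at 104 RPKM (61.5 to 175) and the dopamine-signalling protein Ppp1r1b next at 68.5 RPKM (51.2 to 103). KI_WT 3 and KO_WT 1 were the highest here, and the 9 members of at least 10 CPM varied by 29.8% to 41.0% in CV, the measure of spread given below. The fourth list, of hypothalamic peptides, summed to 7.79, 57.99 and 62.7 RPKM in KI_WT 1 to KI_WT 3 and 16.3, 14.7 and 33.8 RPKM in KO_WT 1 to KO_WT 3. It rests on few genes, since of its 10 members 3 had medians under 0.1 RPKM and 1, Trh, reached a mean of 10 CPM. Trh had 29.8 CPM in KI_WT 3 and 17.6 CPM in KO_WT 3, the libraries high for olfactory bulb markers, and at most 7.94 CPM elsewhere. Whether this sum reflects hypothalamic tissue was not tested. Oxytocin, Oxt, had 0.117, 20.1 and 6.19 RPKM in KI_WT 1 to KI_WT 3 and 0.451, 0.274 and 6.16 RPKM in KO_WT 1 to KO_WT 3, and was low in KI_WT 1, KO_WT 1 and KO_WT 2. The sets of high libraries thus differed between the 4 lists but overlapped in part. KI_WT 3 was the highest library for olfactory bulb, striatum and hypothalamus. Thalamic markers were highest in KO_WT 2 with a sum of 62.6 RPKM, against 34.3 to 39.1 RPKM in the other 5. Their kinase Prkcd had 15.7 RPKM in KO_WT 2.

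**Figure D2:**
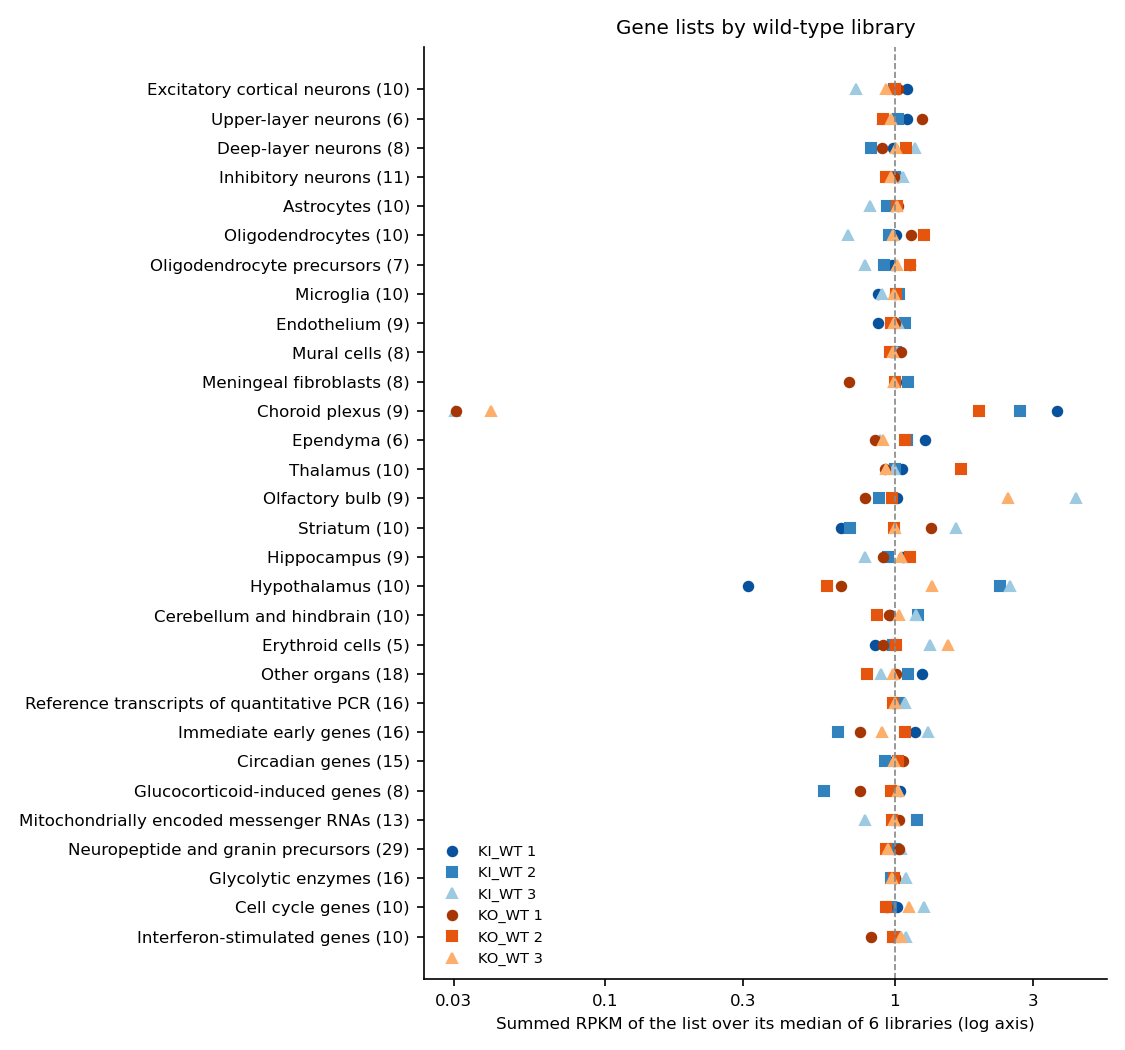
Summed RPKM of each gene list in a wild-type library over the list's median of 6 libraries (log axis), with the number of members in parentheses and 1 symbol per library. Most lists lie within a narrow band around 1, while choroid plexus markers span 119.8-fold, hypothalamic markers 8.05-fold and olfactory bulb markers 5.34-fold between libraries.

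Spread between animals was measured for 10156 genes with a mean of at least 10 CPM (counts scaled to library size, after TMM scaling). The median CV was 7.77%, with quartiles of 5.48% and 11.04%, against a median of 2.64% from counting alone. Within the 2 lines the median was 7.80%, so that separating the lines did not narrow it, and within the KI and KO groups it was 8.53%. A CV above 20% occurred in 509 genes (5.01%), above 50% in 49 genes (0.482%), and below 5% in 1957 genes (19.3%). Among the lower genes, between 1 and 10 CPM, the median was 15.8% and counting gave 9.13%. The 66 genes of at least 1000 CPM had a median of 9.25%, no lower than genes of 100 to 1000 CPM with 7.29%. Leaving out KI_WT 3 brought the 49 genes to 32 and the 509 to 326.

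The genes with the largest CV fell into a few sets by the library in which they were high. After Xist (245%) the highest were the olfactory bulb markers Doc2g (162%) and Cdhr1 (152%), the FERM-domain gene Frmd7 (159.6%), the dopamine-synthesis enzyme tyrosine hydroxylase, Th (142%), and the interneuron factor Sp8 (126%). Doc2g had 1.36, 2.496 and 70.3 CPM in KI_WT 1 to KI_WT 3 and 1.301, 1.38 and 26.1 CPM in KO_WT 1 to KO_WT 3. Calretinin, Calb2, a calcium buffer of interneurons, had 20.1, 17.9 and 138 CPM in KI_WT 1 to KI_WT 3 and 12.8, 19.3 and 66.5 CPM in KO_WT 1 to KO_WT 3, and the radial glia lipid carrier Fabp7 43.4, 64.1 and 220.0 CPM in KI_WT 1 to KI_WT 3 and 41.0, 36.3 and 114 CPM in KO_WT 1 to KO_WT 3. In each of these genes other than Xist KI_WT 3 was highest and KO_WT 3 came next. That pair was on top in 29 of the 49 genes (59.2%), against 14.99% of all 10156. A second set followed choroid plexus: Ttr, Kl, the prolactin receptor Prlr and the phospholipase Enpp2, named after its values were seen, which had 1111, 829.8 and 318 CPM in KI_WT 1 to KI_WT 3 and 369, 817 and 290.3 CPM in KO_WT 1 to KO_WT 3. A further set held Mir6236, Gm24187, Yam1 and Lars2, all highest in KI_WT 2. Prkcd was high in KO_WT 2 alone, with 78.2 CPM, against 13.3 to 16.8 CPM in the other 5. Several of these genes are themselves members of the lists for olfactory bulb, choroid plexus and thalamus, whose sums are given above, and the part of such tissue in the spread was not tested.

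The genes that varied between wild types also varied in libraries that had not chosen them. Of the 49 genes, 43 (87.8%) had a CV above 20% within the KI and KO groups, against 7.74% of all genes. Across the 10156 genes the CV within wild-type lines and that within KI and KO groups had a Spearman correlation of 0.447, over genes that share their libraries and are not independent. Doc2g varied by 113% and Ttr by 42.5% in KI and KO libraries. The set highest in KI_WT 2 had less spread there: Mir6236 varied by 19.5%, Yam1 by 23.8% and Lars2 by 21.1%.

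At the steady end stood the vesicle coat GTPase Arf1, with 371, 369 and 374 CPM in KI_WT 1 to KI_WT 3 and 377, 374 and 373 CPM in KO_WT 1 to KO_WT 3 and a CV of 0.719%. Close to it were the ubiquitin ligase scaffold Cul4a (0.847%), the endosomal Rab5b (0.875%) and the actin regulator Arpc5l (0.946%), and the small GTPase Rac1 had 1.43%. These are the extremes of 10156 values from 6 libraries each. Those of Arf1, Cul4a, Rab5b and Arpc5l lie below the CV from counting alone, which is 0.899%, 1.96%, 1.49% and 1.98%. The same holds for 315 of the 10156 genes. In KI and KO libraries the 40 steadiest genes had a median CV of 5.57%, against 8.53% for all genes.

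**Figure D3:**
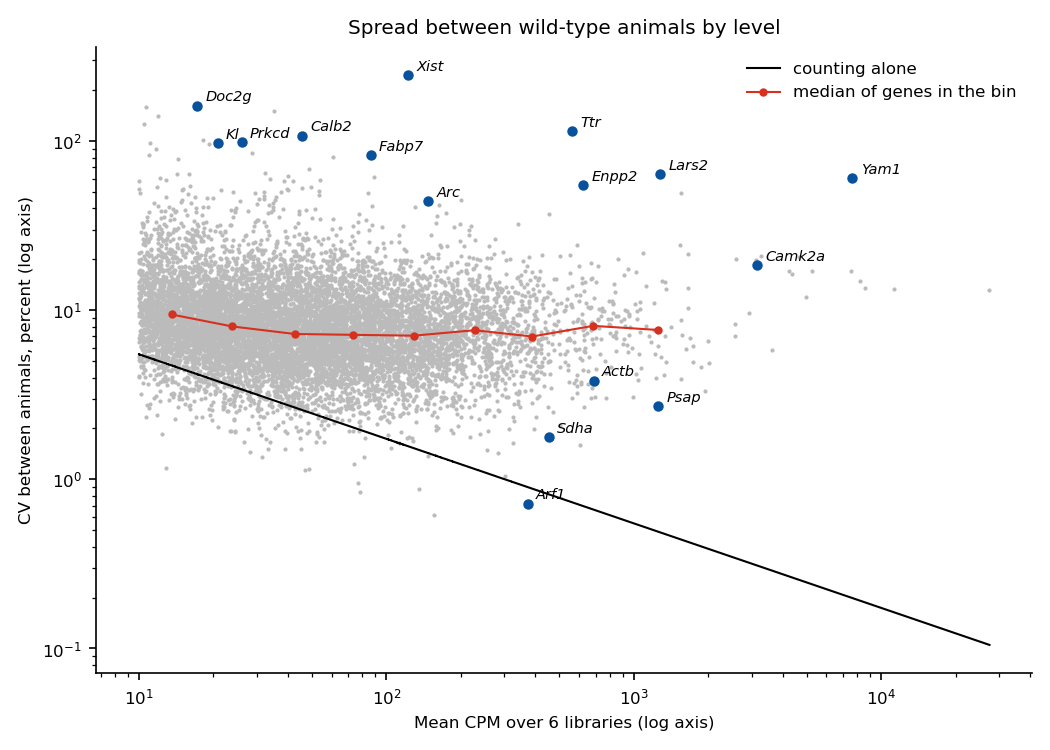
CV between the 6 wild-type animals against mean CPM (both log axes) for the 10156 genes of at least 10 CPM, with the median per bin of level in red and the CV that counting alone gives in black. The median of 7.92% between 10 and 100 CPM and of 7.29% between 100 and 1000 CPM lies above the counting line, and Xist, Doc2g and Ttr are among the highest with 245%, 162% and 115%.

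Functional classes differed in how steady they were. Transcripts in common use as references in quantitative PCR had a median CV of 6.17% (16 genes). The succinate dehydrogenase subunit Sdha was the steadiest, with 116, 115 and 120.3 RPKM in KI_WT 1 to KI_WT 3 and 111, 120.0 and 118 RPKM in KO_WT 1 to KO_WT 3 and a CV of 1.77%, and the transferrin receptor Tfrc the least steady at 11.5%. Gapdh and Actb had 4.15% and 3.84%, and Tbp 10.5%. Glycolytic enzymes had a median of 5.01% over 16 genes. Both class medians lie below the 7.77% of all genes. Ribosomal protein genes, 78 of them, had a median of 10.6% and took 1.20% to 1.53% of counts. Genes that respond to recent events were less steady. Immediate early genes, which neurons switch on within minutes of activity, had a median of 27.9% over 14 genes. Arc, a regulator of synaptic receptors, had 68.3, 22.0 and 70.3 RPKM in KI_WT 1 to KI_WT 3 and 23.8, 62.8 and 43.2 RPKM in KO_WT 1 to KO_WT 3, and Fos had 11.03, 6.91 and 18.4 RPKM in KI_WT 1 to KI_WT 3 and 6.42, 10.2 and 9.62 RPKM in KO_WT 1 to KO_WT 3. Both were low in KI_WT 2 and KO_WT 1. Genes induced by glucocorticoids had a median of 21.8%, and the kinase Sgk1 was lowest in KI_WT 2 (10.04 RPKM), as was the immediate early gene Egr1 (33.3 RPKM). Clock genes had 12.2%, with Per1 at 21.8%, and the hour of dissection was not given in the sources used here.

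Neuropeptide precursors ranged from abundant to nearly absent. Cholecystokinin, Cck, had 261 RPKM (216 to 302), somatostatin, Sst, the level given above, and the granins Chgb and Scg3 139 RPKM (133 to 156) and 134 RPKM (111 to 151). At the low end hypocretin, Hcrt, had 0.0825 RPKM (0.0390 to 0.757). Of 29 precursors 22 had at least 1 RPKM in all 6 libraries. The class had a median CV of 15.5% over its 16 members of at least 10 CPM, with thyrotropin-releasing hormone, Trh, at 97.3%. Chgb and Scg3 had CVs of 7.65% and 11.96%.

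Promoters were read to see what genes of one level share in sequence. The RefSeq table (GRCm38.p6) gave a single start for 13631 of 21384 nuclear protein-coding genes, and the 250 bases upstream of it were used. Mammalian promoters of broadly used genes tend to be rich in the dinucleotide CG, whereas many tissue-specific ones hold a TATA box. Windows are printed here for 6 genes that mark the ends of level and spread: Calm3, Ckb and Nrgn, all among the 30 highest nuclear protein-coding genes, the steady Cul4a, the variable Doc2g and the liver gene Fabp1, listed at 0. They were chosen after their values were seen. Capitals mark CG and, where present, TATAAA.
Calm3, chr7:16924033-16924282, minus strand: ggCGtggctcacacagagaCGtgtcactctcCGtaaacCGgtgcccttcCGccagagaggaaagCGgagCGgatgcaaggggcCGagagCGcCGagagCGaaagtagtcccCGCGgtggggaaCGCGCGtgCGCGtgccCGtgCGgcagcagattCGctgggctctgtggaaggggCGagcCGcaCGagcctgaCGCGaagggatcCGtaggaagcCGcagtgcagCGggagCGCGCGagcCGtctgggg
Ckb, chr12:111672339-111672588, minus strand: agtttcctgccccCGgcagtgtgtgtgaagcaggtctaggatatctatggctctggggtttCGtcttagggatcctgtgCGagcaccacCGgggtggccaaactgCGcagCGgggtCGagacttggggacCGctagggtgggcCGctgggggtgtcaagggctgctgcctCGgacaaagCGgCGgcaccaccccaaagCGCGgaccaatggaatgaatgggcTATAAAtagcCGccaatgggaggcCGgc
Nrgn, chr9:37552746-37552995, minus strand: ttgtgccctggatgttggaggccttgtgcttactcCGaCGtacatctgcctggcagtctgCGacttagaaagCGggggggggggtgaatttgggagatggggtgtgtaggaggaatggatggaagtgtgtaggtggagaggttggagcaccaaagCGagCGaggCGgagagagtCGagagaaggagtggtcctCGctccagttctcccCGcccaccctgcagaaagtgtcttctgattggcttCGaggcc
Cul4a, chr8:13105373-13105622, plus strand: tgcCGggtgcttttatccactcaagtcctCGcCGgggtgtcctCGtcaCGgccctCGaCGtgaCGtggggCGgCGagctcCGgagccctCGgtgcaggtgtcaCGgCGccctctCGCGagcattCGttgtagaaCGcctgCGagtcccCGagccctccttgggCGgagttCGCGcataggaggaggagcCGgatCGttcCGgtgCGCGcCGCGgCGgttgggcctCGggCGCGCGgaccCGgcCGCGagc
Doc2g, chr19:4003135-4003384, plus strand: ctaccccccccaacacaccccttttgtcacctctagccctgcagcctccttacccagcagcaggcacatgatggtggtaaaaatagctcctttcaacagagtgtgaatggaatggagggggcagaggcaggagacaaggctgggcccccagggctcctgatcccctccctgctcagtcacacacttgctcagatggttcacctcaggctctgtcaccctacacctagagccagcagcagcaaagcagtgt
Fabp1, chr6:71199629-71199878, plus strand: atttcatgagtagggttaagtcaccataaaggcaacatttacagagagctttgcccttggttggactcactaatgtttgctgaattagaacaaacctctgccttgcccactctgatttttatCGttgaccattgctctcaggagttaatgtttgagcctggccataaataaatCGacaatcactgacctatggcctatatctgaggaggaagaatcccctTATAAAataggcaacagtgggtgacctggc

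The windows of the 3 abundant genes have no common pattern in these letters. Calm3, at 555 RPKM (527 to 581), has 33 CG in 250 bases, and Cul4a, at 12.2 RPKM (11.96 to 12.6), has 38. Ckb has 16 CG and also TATAAA, and the postsynaptic calmodulin-binding protein Nrgn, at 495 RPKM (386 to 602), has 11 and no TATAAA. Doc2g has 0 CG. Fabp1, the liver fatty acid carrier, has 2 CG and TATAAA.

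Over all genes the number of CG was higher at higher levels up to 100 RPKM and no further. Its median was 1 in 3099 promoters of genes with a median of 0, 4 below 0.1 RPKM and 8 from 0.1 to 1 RPKM. It was 16 from 1 to 10 RPKM, 18 from 10 to 100 RPKM and 16 in the 222 promoters at or above 100 RPKM. TATAAA was searched on the forward strand between 50 and 11 bases upstream of the start. It was present in 3.54% of all these promoters, in 7.68% of those with a median of 0, in 0.929% from 10 to 100 RPKM and in 3.15%, 7 promoters, at or above 100 RPKM. On either strand and over the whole 250 bases the share was 12.5%. It differed by level there too, with 28.3% at a median of 0, 5.30% from 10 to 100 RPKM and 9.46% at or above 100 RPKM. Windows at a median of 0 were also poorer in G and C, with a median of 42.4% against 62.0% from 10 to 100 RPKM. The difference by level is thus not limited to the stretch 50 to 11 bases upstream, and the part of base content was not tested. By spread, among genes of at least 10 CPM, TATAAA stood in 65 of 6146 promoters (1.06%). It stood in 1 of 635 promoters (0.158%) of the steadiest 10% of these genes and in 19 of 553 (3.44%) of the most variable 10%. CG counts of the steadiest and the most variable were close, with medians of 18 and 16. Among the 22 promoters of genes with a CV above 50% TATAAA occurred in 0. A match is a description of these letters and not of a working site, and no test was made.

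**Figure D4:**
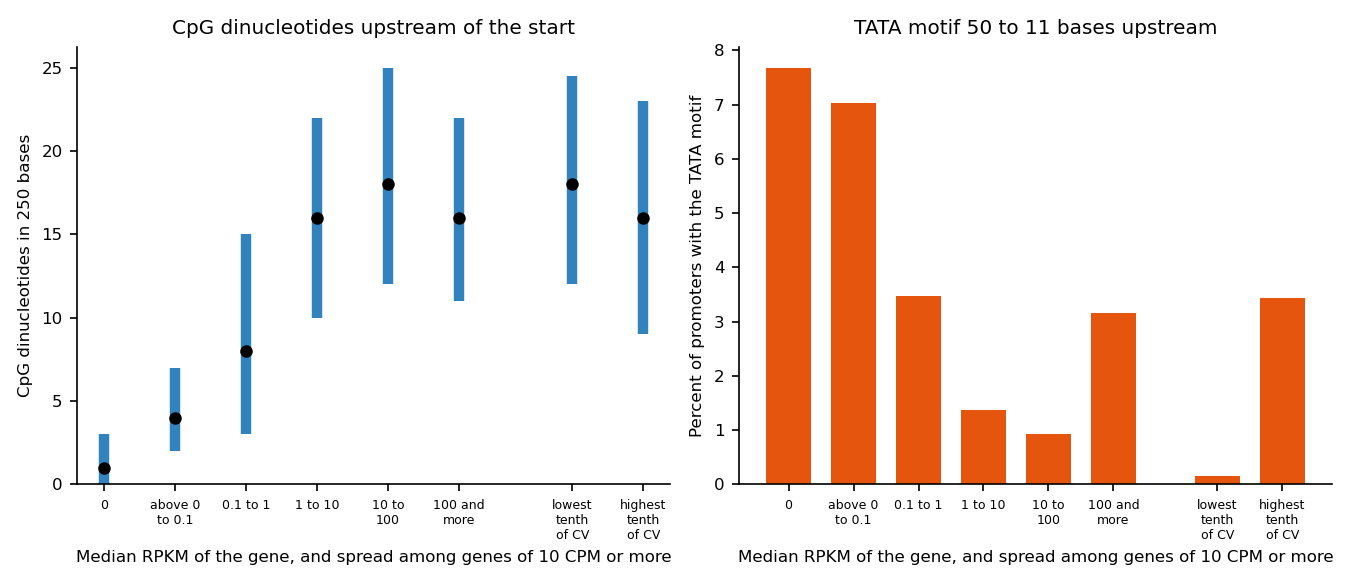
Left, the median (dot) and quartiles (bar) of the number of CG (CpG) dinucleotides in the 250 bases upstream of the start by median RPKM of the gene, and for the steadiest and the most variable 10% of genes. Right, the percentage of these promoters with the TATA motif (TATAAA) 50 to 11 bases upstream, which is 7.68% for genes with a median of 0 and 0.929% from 10 to 100 RPKM. Over the whole 250 bases and on either strand, which is not drawn, these shares are 28.3% and 5.30%.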

How the data were processed

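Poly(A) RNA of 12 adult cortices was sequenced, and the 6 wild-type libraries were described. The authors deposited raw counts per gene and RPKM values, made with bcl2fastq 2.17, STAR 2.5.0c, Cufflinks 2.2.1 and GRCm38 per the submitters' processing notes; the counter, the annotation and the strand setting are not given in the sources used here. RPKM as deposited was used for levels, and a length recovered from counts and RPKM differed between libraries by at most 0.0770% over 8375 genes. The deposited counts were scaled by TMM (edgeR 4.0.16 in R 4.3.3) over the 6 libraries, and the CV was taken for genes with a mean of at least 10 CPM. Totals of 31790970 to 33969744 counts give a median counting error of 2.64%, and counting errors cover counting only. No groups were compared and no test was made, and replicate numbers, given in record order, pair nothing. The spread between libraries holds animals, dissection and library preparation together. GENCODE M21 gave positions and types for 40254 gene IDs and the transcripts for the 50-base windows, a length chosen here since the read length is not given. RefSeq (GRCm38.p6) gave the promoters; protein sequences had been planned and are not used here. The spread calculation was tested on simulated data. Families, lists and the choice of libraries were made with earlier results of these data known. Named genes are the 20 highest by median RPKM, leaders, next members and members at 0 of families, the first 4 members of a list by level and 2 by CV, and the 20 highest and 15 lowest by CV; Grin1, mt-Co3, mt-Atp6, mt-Co2, mt-Nd4l, Lars2, Apoe, Glul, Cfl1, Gpm6a, Camk2n1, Calm3, Tbr1, Hoxb5, Enpp2, Sdha, Fos, Nrgn and Fabp1 fall outside and were picked with their values known. A few further genes are not reported here. Alternatives were another scaling, other minimum levels, CPM in place of RPKM, leaving out mitochondrial genes, and leaving out libraries.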

Additional observations from a re-analysis of the deposited data

Results flagged for a closer look

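For 257 named genes, 31 list sums and 7 library measures, the highest or lowest of the 6 wild-type libraries was checked for lying apart. It was picked out when its gap to the nearest library, as a share of the whole range, exceeded Dixon's 95% critical value for 6 samples. This happened for 38 values, and chance picks out about 1 in 20 groups that were not chosen by their values. That rate does not carry over to these genes, since many were named for their spread between the libraries or with their values known. KI_WT 2 was the library apart in 14 and KI_WT 3 in 15, against 4 for KO_WT 2, 3 for KO_WT 1, 2 for KI_WT 1 and none for KO_WT 3.

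In KI_WT 1 these were the sex-linked transcripts. They were Xist at 40.7 RPKM (others 0.00300 to 0.0330 RPKM), and Ddx3y at 0 RPKM (others 17.8 to 21.03 RPKM).

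KI_WT 2 stood apart for several short or non-coding entries and for the protein-coding Lars2. They were Gm23935 at 53699 RPKM (others 18043 to 26109 RPKM), Yam1 at 9127 RPKM (others 2509 to 4034 RPKM), Gm24270 at 3446 RPKM (others 961 to 1403 RPKM), Mir6236 at 1299 RPKM (others at most 394 RPKM), Gm24187 at 643 RPKM (others 124 to 212 RPKM) and Lars2 at 743 RPKM (others 205 to 298 RPKM). The shares of counts were apart as well, with mitochondrial ribosomal RNA at 1.67% (others 1.23 to 1.38%), long intergenic RNA at 2.32% (others 0.931 to 1.34%) and microRNA genes at 0.351% (others 0.118 to 0.168%). The ribosomal and hypothalamic genes were Rplp1 at 989 RPKM (others 727 to 801 RPKM) and Oxt at 20.1 RPKM (others 0.117 to 6.19 RPKM). Low in KI_WT 2 were Map1b at 69.9 RPKM (others 78.9 to 83.7 RPKM), Sv2b at 74.1 RPKM (others 92.3 to 100.2 RPKM) and Slc2a1 at 20.8 RPKM (others 29.4 to 34.1 RPKM).

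KI_WT 3 stood apart upward for genes of energy use, synapse, regulation and DNA replication. They were Ldhb at 392 RPKM (others 284 to 308 RPKM), Slc25a5 at 166 RPKM (others 121 to 132 RPKM), Eif4a2 at 215 RPKM (others 153 to 175 RPKM), Cplx1 at 282 RPKM (others 231 to 242 RPKM), Dnm3 at 14.1 RPKM (others 11.01 to 11.9 RPKM), Crem at 4.99 RPKM (others 3.33 to 3.83 RPKM) and Pcna at 23.6 RPKM (others 18.7 to 20.1 RPKM), and the sum of glycolytic enzymes at 3268 RPKM (others 2908 to 3005 RPKM). Markers of interneurons and olfactory bulb and Frmd7 were apart too, with Gad1 at 106 RPKM (others 44.2 to 64.5 RPKM), Doc2g at 24.02 RPKM (others 0.420 to 8.68 RPKM) and Frmd7 at 20.7 RPKM (others 0.282 to 7.87 RPKM). It was the lowest library for Camk2a at 284 RPKM (others 406 to 477 RPKM), Elavl3 at 37.6 RPKM (others 43.02 to 46.1 RPKM), Mpped1 at 27.6 RPKM (others 36.2 to 39.8 RPKM) and mt-Nd4 at 2185 RPKM (others 3084 to 3616 RPKM).

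In KO_WT 1 the values apart were Prkar1b at 172 RPKM (others 132 to 147 RPKM) and Aplp1 at 374 RPKM (others 316 to 336 RPKM), and the sum of meningeal fibroblast markers at 28.4 RPKM (others 40.7 to 45.6 RPKM). In KO_WT 2 they were Prkcd at 15.7 RPKM (others 2.69 to 3.396 RPKM), Rora at 10.8 RPKM (others 8.59 to 9.14 RPKM) and Cnr2 at 0.103 RPKM (others 0.0470 to 0.0600 RPKM), and the sum of thalamic markers at 62.6 RPKM (others 34.3 to 39.1 RPKM). Prkcd and Rora are themselves members of the thalamic list.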

How the results depend on the processing

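Of the 113 values that 9 results took under other settings, 96 stayed within limits and 17 did not; the limit was 1.5 times for counts and, for the median CV, the SD of its values with 1 library left out at a time. Among the 20 highest genes 13 stayed when ranked by CPM. Without mitochondrially encoded genes 12 stayed, which is by construction, since the other 8 are mitochondrial. The median CV of 7.77% became 9.35% from a mean of 1 CPM on and 20.3% with no minimum. Genes with a CV over 20% became 1995, 13241 and, from 50 CPM on, 129, and those over 50% became 213, 8345 and 11. Leaving out 1 library at a time, the median CV ran from 6.68 to 8.18%, the genes over 20% from 326 to 607 and those over 50% from 32 to 63, each lowest without KI_WT 3. Without KI_WT 3 and KO_WT 3, a choice made after seeing the data, they were 6.61%, 306 and 26. The counts of genes at 1 RPKM, of families by leader and ratio, and of marker lists that differed 2-fold stayed within 1.5 times under every setting run. Some of these settings could not move them, and their values are among the 96. Rescaling RPKM within a library leaves its leaders and ratios as they are, and every family leader had at least 1 RPKM. Leaving out libraries cannot lower the number of genes or families that pass in every library, nor raise the number of lists that differed 2-fold. Single leaders did change: Prdx2 led without KI_WT 1, KO_WT 1 or KO_WT 2, Htr2c without KI_WT 1, and Drd2 and Sstr2 without KO_WT 3. No paired analysis was possible because no groups were compared and replicate numbers follow record order.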

Other observations

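Of 10 genes of cell division and young neurons 5 had at least 1 RPKM in all 6 libraries. Pcna, the DNA polymerase clamp, had 19.4 RPKM (18.7 to 23.6), whereas the mitotic genes Mki67 and Top2a had medians of 0.456 and 0.572 RPKM. Doublecortin, Dcx, a protein of migrating young neurons, had 3.04, 3.22 and 7.78 RPKM in KI_WT 1 to KI_WT 3 and 2.83, 2.295 and 6.38 RPKM in KO_WT 1 to KO_WT 3. It was highest in KI_WT 3 and KO_WT 3, the libraries in which olfactory bulb markers were highest as well. Interferon-stimulated genes summed to 31.7 to 41.7 RPKM, with Ifi27 first at 18.8 RPKM (14.7 to 20.6).

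Hippocampal markers split into groups of different spread. Mpped1 and Ociad2, at 37.9 and 37.5 RPKM, had CVs of 14.2% and 11.5%, while the dentate factor Prox1 had 6.11, 4.63 and 1.84 RPKM in KI_WT 1 to KI_WT 3 and 2.25, 6.81 and 4.098 RPKM in KO_WT 1 to KO_WT 3 and Fibcd1, known from CA1, 6.16, 4.94 and 2.72 RPKM in KI_WT 1 to KI_WT 3 and 2.44, 9.30 and 4.701 RPKM in KO_WT 1 to KO_WT 3. Mki67, Top2a and Prox1 were chosen after their values were seen.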
